A study of Mus musculus with 9 samples.

Results

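The genes described are the collagens, here every gene whose symbol is Col, a number, the letter a and a number. Probesets with a single gene symbol held 44 such genes of 19938 genes in all, and where a gene had several probesets the one with the highest mean was used. RefSeq also lists 44 collagen genes. All 44 passed the filter on low values, a mean of at least 4.716 log2, which left 14953 genes to test.

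Collagens are chains that wind together into trimeric rods of the extracellular matrix. Fibrillar collagens pack into the tensile fibrils of connective tissue, and in the gut wall these are made mainly by fibroblasts and smooth muscle. Basement membrane collagens, above all type IV, form the sheet on which epithelium, vessels and muscle rest. Type VI collagen forms beaded filaments near cells, and fibril associated collagens bind the surface of fibrils. In the colon, fibrils lie in the lamina propria and below it, and so beneath the epithelium that a scraping is meant to lift off.

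RNA came from scrapings of the colon of male C57BL/6J mice aged 9 to 11 weeks, an inbred laboratory strain, hybridised to Affymetrix whole-transcript arrays. All mice first ate a control diet for 1 week, in which fat gave 40% of the energy. The heme mice then ate this diet with 0.2 µmol heme per g, the iron-holding pigment of red meat, until day 2, 4, 7 or 14. The control mice stayed on it unsupplemented until the same days, and a further control group was taken on day 0. Each diet and day was 1 array of RNA pooled from 4 mice, or 3 in the control pool of day 2, so there were 4 heme pools and 5 control pools, and day 0 had no heme pool. No diet and day had a second pool, so no p-value measures the spread between animals. In the diet test the spread is that between pools of different days. In the test of the day, and in diet fits with the day as a block, it is how the diet difference varied between days. Pooled RNA is an average over its mice, and a single mouse that stood apart within a pool cannot be seen.

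All values are log2 expression as deposited, in which a difference of 1 is a change by a factor of 2. Pool values are given in order of day, first the heme pools of days 2, 4, 7 and 14 and then the control pools of days 0, 2, 4, 7 and 14. Array medians lay between 5.895 and 5.963 log2, and 14 of the 44 collagen genes had a mean below all of them. Of the 44 genes, 26 had equal values, to 8 decimals, in at least 2 of the 9 pools. Arrays have no read depth, so precision is limited by how many there are. Probes differ in brightness, so levels are compared between pools and never between genes.

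The label of these genes as stromal covers only some of them by what they are known for. The type I, III and VI collagens are made by fibroblasts. Other members are known from elsewhere, such as Col2a1 and the type IX, X and XI chains of cartilage, or Col17a1 and Col7a1, which tie epithelium of the skin to its base. The 44 genes shared no single pattern over the pools. Both pools of day 2 were the lowest for 10 of them, against 4.18% of all genes tested.

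Promoter windows from RefSeq (mouse build GRCm38.p6) run from 250 bases before to 50 after a gene's start. They were found for 35 of the 44 genes, which had 38 windows. The windows of Col1a2 at chr6:4505368-4505667 (+) and Col3a1 at chr1:45311288-45311587 (+) are shown because these genes varied most between pools, with capitals at motifs on either strand. The motifs searched were GGGCGG, known as a GC box, then CCAAT, known as a CAAT box, and last TATAAA, known as a TATA box. No match overlaps another in these windows.

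Col1a2: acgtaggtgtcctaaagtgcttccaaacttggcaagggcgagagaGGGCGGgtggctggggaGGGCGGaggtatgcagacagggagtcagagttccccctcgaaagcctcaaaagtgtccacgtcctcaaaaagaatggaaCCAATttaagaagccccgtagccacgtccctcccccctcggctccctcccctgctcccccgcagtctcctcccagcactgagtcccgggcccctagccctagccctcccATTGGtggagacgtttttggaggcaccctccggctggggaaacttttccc

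Col3a1: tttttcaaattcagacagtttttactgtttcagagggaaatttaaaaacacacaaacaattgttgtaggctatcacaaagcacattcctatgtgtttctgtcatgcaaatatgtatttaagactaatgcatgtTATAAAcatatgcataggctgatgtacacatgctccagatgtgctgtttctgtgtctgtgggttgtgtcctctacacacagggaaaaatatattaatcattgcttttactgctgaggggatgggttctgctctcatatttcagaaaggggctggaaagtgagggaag

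The windows of Col4a1 at chr8:11312777-11313076 (-) and Col4a2 at chr8:11312555-11312854 (+) are shown because these partner chains of type IV collagen lie head to head and their windows overlap by 78 bases, in capitals here.

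Col4a1: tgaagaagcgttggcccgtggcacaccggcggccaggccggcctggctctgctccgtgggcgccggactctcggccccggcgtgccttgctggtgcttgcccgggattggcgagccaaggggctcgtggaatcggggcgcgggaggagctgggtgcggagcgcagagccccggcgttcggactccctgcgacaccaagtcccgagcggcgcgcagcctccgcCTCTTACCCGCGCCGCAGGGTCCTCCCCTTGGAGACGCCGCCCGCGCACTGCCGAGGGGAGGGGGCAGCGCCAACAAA

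Col4a2: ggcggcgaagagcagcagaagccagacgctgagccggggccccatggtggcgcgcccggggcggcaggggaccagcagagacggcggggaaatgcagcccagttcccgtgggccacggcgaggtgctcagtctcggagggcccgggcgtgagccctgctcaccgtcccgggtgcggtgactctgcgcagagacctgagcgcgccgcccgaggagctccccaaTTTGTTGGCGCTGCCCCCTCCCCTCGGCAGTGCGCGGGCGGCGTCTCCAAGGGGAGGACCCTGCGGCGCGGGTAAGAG

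The GGGCGG motif stood in 60.5% of the collagen windows, against 35.7% of all 32851 promoter windows. CCAAT stood in 34.2% of the collagen windows and 37.4% of all windows, and TATAAA in 13.2% and 13.6%. Col1a2 held 2 matches to GGGCGG, 2 to CCAAT and 0 to TATAAA, while Col3a1 held 1 match to TATAAA and 0 to the others. Col4a1 held 1 match to GGGCGG and 1 to CCAAT, and Col4a2 held 3 and 1. A match is a description of these letters only.

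**Figure D1:**
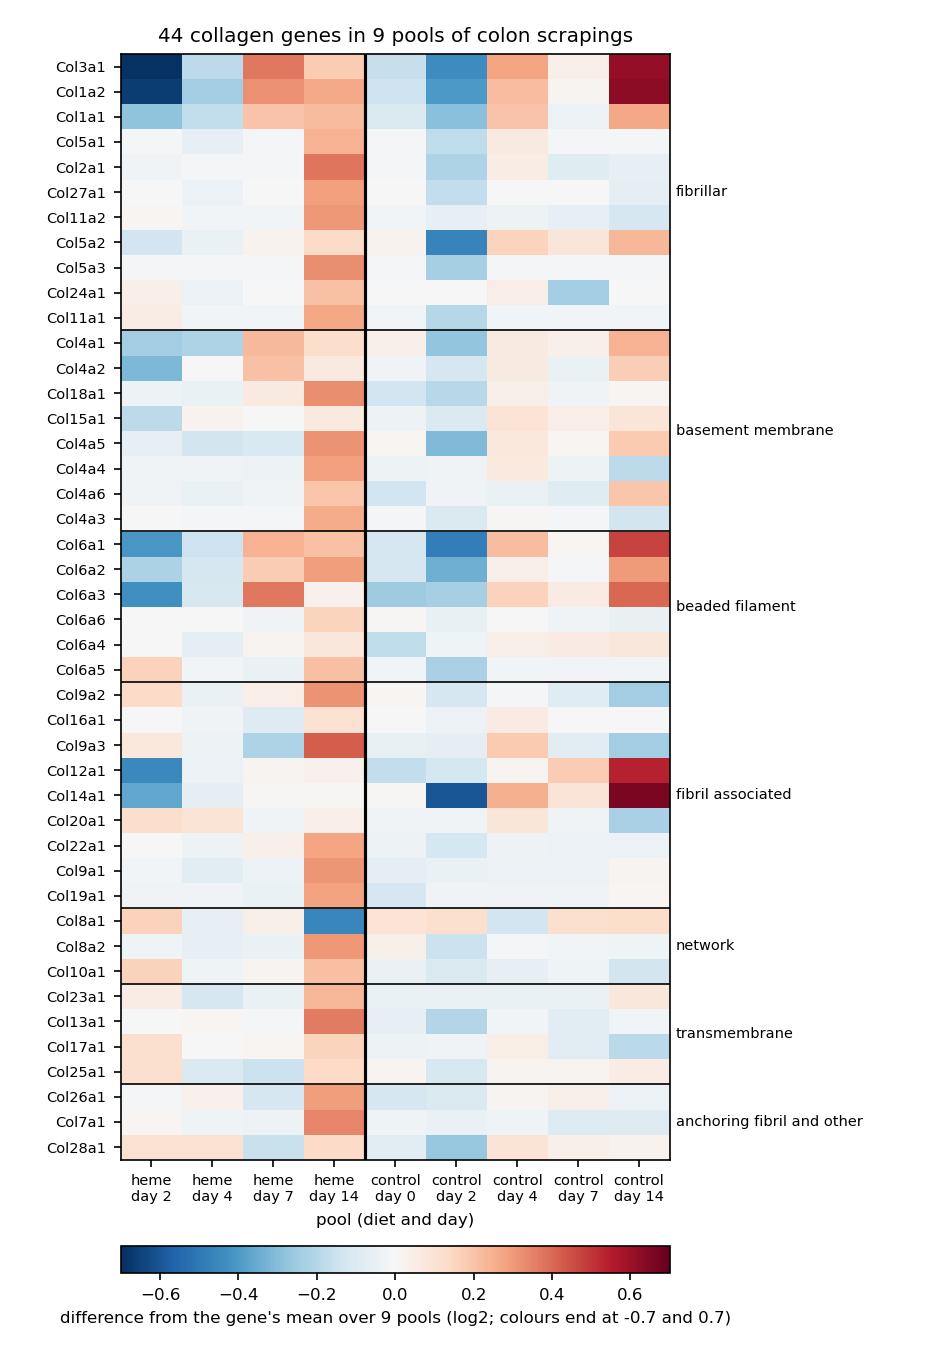
The difference of each of the 44 collagen genes from its own mean over the 9 pools (log2, colour), with genes in rows by class and pools in columns, heme pools left of the line. Col3a1, Col1a2, Col6a1 and Col14a1 are blue in both pools of day 2. In the heme pool of day 14, 29 of the 44 genes are at their highest, against 25.4% of all genes tested.

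The first question was whether heme changed collagen expression. In limma's test of the 4 heme pools against the 5 control pools, 0 of the 44 collagen genes were called at an adjusted p under 0.05, where 0.669% of all genes tested were called. Unadjusted p-values under 0.05 were found for 2 of the 44, both higher, against 17.0% of all genes in either direction and 8.39% higher. The smallest adjusted p was 0.245. With either the day 2 or the day 14 heme pool left out, or the day 14 control pool, 0 of the 44 had an unadjusted p under 0.05, against 20.7%, 11.0% and 14.3% of all genes in those fits. The collagens' differences ran from -0.20 to 0.20 log2 with a median of 0.08, against a median of 0.00 over all genes. Of the 44, 30 lay above 0, against 7332 of all 14953 genes. With the heme pool of day 14 left out, the collagens' median was 0.00. Then 22 of the 44 lay above 0, against 7295 of all 14953 genes. In bulk samples such as these, fewer cells of a type and less RNA per cell cannot be told apart.

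The 2 genes with an unadjusted p under 0.05 were Col10a1 and Col9a2, and neither passed after adjustment. Col10a1, the network collagen of growing cartilage, stood at 5.14, 4.95, 5.00 and 5.19 log2 in the heme pools, against 4.93, 4.88, 4.92, 4.95 and 4.85 log2 in the control pools. Its highest control pool reached its lowest heme pool, and its mean difference was 0.16 (SE 0.06, limma adjusted p = 0.245). Col9a2, a chain of a fibril associated collagen, stood at 6.91, 6.73, 6.82 and 7.09 log2 in the heme pools, against 6.79, 6.66, 6.76, 6.69 and 6.53 log2 in the control pools. The groups overlapped, and the mean difference was 0.20 (SE 0.08, limma adjusted p = 0.26). Col13a1, a transmembrane collagen, was the 1 gene of the 44 with all 4 heme pools above all 5 control pools, which held for 3.26% of all genes. Its difference was 0.17 (SE 0.08, limma adjusted p = 0.328).

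Set against the control pool of the same day, the collagens did not keep one direction. The median of the 44 differences, heme minus control, was 0.10 on day 2, -0.06 on day 4, 0.00 on day 7 and 0.22 on day 14. Over all genes these medians were 0.00, 0.00, 0.00 and -0.01. The heme pool was the higher one for 36, 7, 21 and 30 of the 44 genes on these days, and for 47.6%, 51.0%, 41.4% and 44.8% of all genes. Col10a1, Col11a2 and Col13a1 were higher in the heme pool on all 4 days, 3 of 44 against 10.9% of all genes. Col12a1 and Col15a1 were lower on all 4 days, 2 of 44 against 12.0% of all genes. These genes were named after their values were seen.

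**Figure D2:**
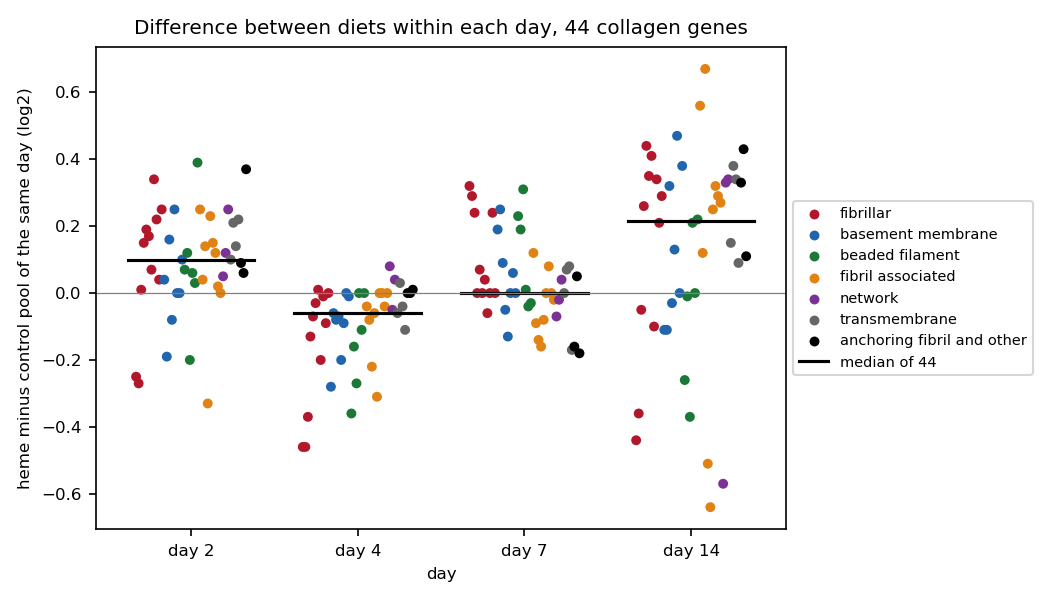
The heme minus control difference within each day (log2, vertical axis) for the 44 collagen genes on days 2, 4, 7 and 14, coloured by class, with the median as a bar. The medians are 0.10, -0.06, 0.00 and 0.22, and on day 14 Col14a1 at -0.64, Col8a1 at -0.57, Col12a1 at -0.51 and Col3a1 at -0.44 lie below 0 while Col9a3 reaches 0.67.

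The fibrillar class held 11 genes, and its diet differences had a median of 0.09, with 7 above 0. Col3a1, the fibrillar collagen of soft, stretchable tissue, stood at 7.88, 8.39, 8.94 and 8.75 log2 in the heme pools, against 8.41, 8.13, 8.85, 8.61 and 9.19 log2 in the control pools. The groups overlapped over nearly their whole range, with the lowest values in the heme and control pools of day 2 and the highest in the control pool of day 14. It averaged 8.49 ± 0.47 in heme pools (SD, n = 4) and 8.64 ± 0.41 in control pools (SD, n = 5), a difference of -0.15 (SE 0.24, limma adjusted p = 0.758). Within days the difference was -0.25, -0.46, 0.32 and -0.44, so day 7 ran against the other days.

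Col1a2, a chain of type I collagen, stood at 7.52, 7.94, 8.50 and 8.45 log2 in the heme pools, against 8.04, 7.78, 8.40, 8.20 and 8.81 log2 in the control pools. As for Col3a1, both pools of day 2 were the lowest of the 9. Its mean difference was -0.15 (SE 0.24, limma adjusted p = 0.751), with -0.27, -0.46, 0.29 and -0.36 within days. Col1a1, the other type I chain, stood at 7.62, 7.73, 8.10 and 8.12 log2 in the heme pools, against 7.80, 7.61, 8.10, 7.86 and 8.17 log2 in the control pools. The groups covered almost the same range, and the mean difference was -0.02 (SE 0.14, limma adjusted p = 0.958).

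The next 3 fibrillar genes by mean had a different shape, nearly flat but for a high heme pool of day 14 and a low control pool of day 2. Not every other fibrillar gene had it, and Col5a2 was highest in the control pool of day 14, at 6.21. Col5a1, a chain of the type V collagen that starts fibrils, stood at 6.54, 6.50, 6.54 and 6.80 log2 in the heme pools, against 6.54, 6.38, 6.62, 6.54 and 6.54 log2 in the control pools. Col2a1, the main collagen of cartilage, stood at 6.49, 6.50, 6.50 and 6.89 log2 in the heme pools, against 6.50, 6.30, 6.57, 6.43 and 6.46 log2 in the control pools. Col27a1, another cartilage fibrillar collagen, stood at 6.38, 6.34, 6.38 and 6.67 log2 in the heme pools, against 6.38, 6.21, 6.38, 6.38 and 6.32 log2 in the control pools. In each of the 3 genes the heme pool of day 14 was the highest of the 9 and the control pool of day 2 the lowest. Their mean differences were 0.07, 0.14 and 0.11 (SE 0.07, 0.09 and 0.07), with limma adjusted p-values of 0.61, 0.412 and 0.436. Without the heme pool of day 14 these differences were 0.00, 0.05 and 0.03.

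The basement membrane class held 8 genes, with a median diet difference of 0.02 and 5 above 0. Col4a1, a chain of the type IV collagen found in every basement membrane, stood at 6.66, 6.69, 7.13 and 7.03 log2 in the heme pools, against 6.94, 6.63, 6.97, 6.94 and 7.15 log2 in the control pools. Its partner Col4a2 stood at 6.38, 6.70, 6.90 and 6.76 log2 in the heme pools, against 6.67, 6.57, 6.76, 6.65 and 6.87 log2 in the control pools. For both genes the pools of day 2 were the lowest of the 9, and the groups overlapped. The mean differences were -0.04 (SE 0.12, limma adjusted p = 0.859) for Col4a1 and -0.02 (SE 0.10, limma adjusted p = 0.922) for Col4a2.

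Col15a1 and Col18a1 are collagens of basement membrane zones, and the end of Col18a1 is cut off as endostatin. Col18a1 stood at 6.28, 6.27, 6.38 and 6.64 log2 in the heme pools, against 6.18, 6.12, 6.36, 6.29 and 6.33 log2 in the control pools. Its highest value was in the heme pool of day 14, and its difference was 0.14 (SE 0.08, limma adjusted p = 0.402), or 0.05 without that pool. Col15a1 stood at 6.03, 6.24, 6.21 and 6.28 log2 in the heme pools, against 6.18, 6.11, 6.31, 6.26 and 6.30 log2 in the control pools. It varied little, with a range of 0.27 over the 9 pools and a difference of -0.04 (SE 0.06, limma adjusted p = 0.726).

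The other type IV chains form networks known best from the kidney's filter and from some epithelia. Col4a5 stood at 5.76, 5.69, 5.71 and 6.13 log2 in the heme pools, against 5.83, 5.51, 5.89, 5.83 and 6.00 log2 in the control pools. Col4a6 stood at 5.32, 5.30, 5.32 and 5.54 log2 in the heme pools, against 5.21, 5.32, 5.30, 5.26 and 5.54 log2 in the control pools. Both genes were at their highest in the pools of day 14, whichever the diet.

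Col4a3 and Col4a4, the other chains of the kidney network, behaved otherwise in the control pool of day 14. Col4a3 stood at 5.34, 5.33, 5.33 and 5.60 log2 in the heme pools, against 5.33, 5.24, 5.35, 5.33 and 5.21 log2 in the control pools. Col4a4 stood at 5.55, 5.55, 5.54 and 5.86 log2 in the heme pools, against 5.54, 5.55, 5.64, 5.54 and 5.39 log2 in the control pools. For these genes the heme pool of day 14 was the highest and the control pool of day 14 the lowest, and the day 14 differences were 0.38 and 0.47. Differences over all pools were 0.11 and 0.09 (SE 0.07 and 0.08), and 0.01 for Col4a5 and 0.04 for Col4a6 (SE 0.11 and 0.08). Limma adjusted p-values of the 4 genes lay at 0.412, 0.537, 0.97 and 0.801 in the order named.

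**Figure D3:**
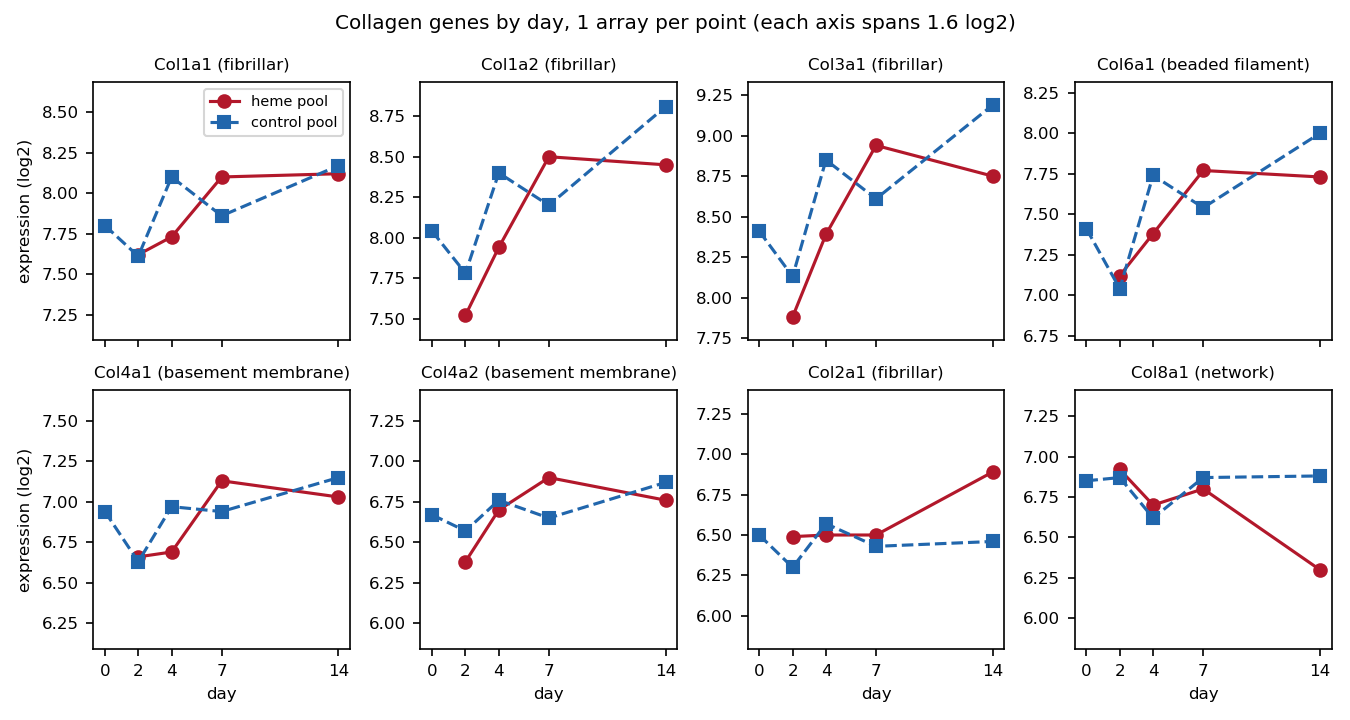
Expression (log2, vertical axis) of 8 collagen genes by day (horizontal axis, in days), with heme pools as circles and control pools as squares, 1 array per point and no error bar because no diet and day has a second pool. Col3a1 reaches 8.94 in heme pools and 9.19 in control pools, and Col8a1 stands at 6.30 in the heme pool of day 14 against 6.62 or more in all other pools.

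Among the beaded filament genes, Col6a1, a chain of type VI collagen, stood at 7.12, 7.38, 7.77 and 7.73 log2 in the heme pools, against 7.41, 7.04, 7.74, 7.54 and 8.00 log2 in the control pools. Col6a2 stood at 7.00, 7.10, 7.40 and 7.51 log2 in the heme pools, against 7.10, 6.88, 7.26, 7.21 and 7.52 log2 in the control pools. Both were lowest in the pools of day 2 and highest in the control pool of day 14. Col6a3, the long chain of this trimer, stood at 6.46, 6.78, 7.26 and 6.92 log2 in the heme pools, against 6.64, 6.66, 7.05, 6.95 and 7.29 log2 in the control pools. The differences of Col6a1, Col6a2 and Col6a3 were -0.04, 0.06 and -0.06 (SE 0.19, 0.14 and 0.17), with limma adjusted p-values of 0.911, 0.827 and 0.853. The later type VI chains Col6a4, Col6a5 and Col6a6 spanned 5.75 to 6.45 in heme pools and 5.57 to 6.30 in control pools.

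Among the other classes, 1 network collagen ran the other way on day 14. Col8a1, a network collagen of vessel walls and corneal sheets, stood at 6.92, 6.70, 6.80 and 6.30 log2 in the heme pools, against 6.85, 6.87, 6.62, 6.87 and 6.88 log2 in the control pools. It was the 1 collagen gene at its lowest in the heme pool of day 14, and its difference was -0.14 (SE 0.11, limma adjusted p = 0.52), or -0.01 without that pool. Col16a1, a fibril associated collagen, stood at 6.64, 6.62, 6.55 and 6.75 log2 in the heme pools, against 6.64, 6.60, 6.70, 6.64 and 6.64 log2 in the control pools. Its difference was 0.00 (SE 0.05, limma adjusted p = 0.994). The skin anchors Col17a1 and Col7a1 each had a difference of 0.13 (SE 0.06 and 0.08), with limma adjusted p-values of 0.305 and 0.39, and both were highest in the heme pool of day 14.

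The second question was whether collagens differed between days with the diet held. Over the 8 pools of days 2, 4, 7 and 14, limma's F test of the day called 0 of the 44 collagen genes, where 0.154% of all genes were called. At an unadjusted p under 0.05 there were 10 of 44, or 22.7%, against 7.12% of all genes. They were Col1a1, Col1a2, Col3a1 and Col5a2 of the fibrils, Col6a1, Col6a2 and Col6a3 of the beaded filaments, Col4a1 of the basement membrane, and Col12a1 and Col14a1, which bind fibrils. The smallest adjusted p was 0.292, for Col1a2 (F = 12.5) and Col6a2 (F = 12.4). Without the control pool of day 7, Col3a1 and Col1a2 passed (F = 69 and 67.8, adjusted p = 0.0437 each), where 0.161% of all genes did. Without both pools of day 2, 0 of the 44 had an unadjusted p under 0.05, against 3.60% of all genes. Without the control pool of day 2 alone there were 3 (6.82%), against 5.04% of all genes, and without the heme pool of day 2 alone there were 6 (13.6%), against 4.15%.

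The day means of these genes, each over a heme and a control pool, were lowest on day 2. Col1a2 averaged 7.65, 8.17, 8.35 and 8.63 log2 on days 2, 4, 7 and 14, a 1.97-fold range, and Col3a1 averaged 8.00, 8.62, 8.78 and 8.97 log2, a 1.96-fold range. Col6a1 averaged 7.08, 7.56, 7.66 and 7.87 log2, a 1.72-fold range, and Col4a1 averaged 6.65, 6.83, 7.03 and 7.09 log2, a 1.36-fold range. Col12a1 and Col14a1 are described here after their values were seen. Col14a1, a fibril associated collagen, stood at 6.10, 6.40, 6.47 and 6.47 log2 in the heme pools, against 6.47, 5.86, 6.71, 6.55 and 7.12 log2 in the control pools. Col12a1, of the same kind, stood at 6.05, 6.46, 6.52 and 6.53 log2 in the heme pools, against 6.33, 6.38, 6.52, 6.68 and 7.04 log2 in the control pools. In both genes the control pool of day 14 stood above every other pool. Among the heme pools Col12a1 was also highest on day 14, at 6.53, and Col14a1 stood at 6.47 on days 7 and 14.

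Both pools of day 2 were the lowest of the 9 for 10 of the 44 collagen genes (22.7%), against 4.18% of all genes, and the highest for 0 of 44, against 4.49%. These 10 were Col1a1, Col1a2, Col3a1, Col5a2, Col4a1, Col4a2, Col15a1, Col6a1, Col6a2 and Col14a1, and 8 of them are among the 10 with an unadjusted p under 0.05 in the F test, which used the same values. By class they were 4 of 11 fibrillar, 3 of 8 basement membrane, 2 of 6 beaded filament and 1 of 9 fibril associated genes. Network, transmembrane and anchoring collagens had none among 3, 4 and 3 genes. Both pools of day 14 stood above the other 7 pools for 8 of 44 (18.2%), against 3.42% of all genes.

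The pools of day 2 also stood apart in genes that are not collagens. Markers of the exocrine pancreas, which lies beside the colon, stood 3.30 above their 9-pool mean in the heme pool of day 2 and 2.64 above it in the control pool of day 2, and between -0.93 and -0.73 in the other 7 pools. Of 8 pancreas genes tested, 8 were called in the F test of the day, against 0.154% of all genes. They were Cpa1, Cpb1, Cela2a, Cela3b, Ctrb1, Cel, Prss2 and Clps. Summed linear values of the pancreas list ran from 350 to 6752 in heme pools and from 352 to 4400 in control pools. The part of this material in the collagen values of day 2 was not tested.

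The third question was whether the diet difference came late. The interaction of diet with days 7 and 14 against days 2 and 4 called 0 of the 44 collagen genes and 0% of all genes in limma. At an unadjusted p under 0.05 there were 0 of 44, against 6.62% of all genes. The median interaction of the collagens was 0.12 log2, against -0.03 over all genes, and the smallest adjusted p was 0.778. Without the heme pool of day 7, 11 of the 44 had an unadjusted p under 0.05, against 21.0% of all genes in that fit, and 0 were called. Along the control pools alone, the slope on log2(day + 1) called 0 of 44 and 0% of all genes, with 3 of 44 at an unadjusted p under 0.05, against 7.18% of all genes. These 3 were Col12a1, Col6a3 and Col6a4, with slopes of 0.18, 0.16 and 0.07 log2 per unit of log2(day + 1) (limma adjusted p = 0.677 each). Without the control pool of day 0 there were 9 of 44 (20.5%) at an unadjusted p under 0.05, against 6.35% of all genes in that fit, and 0 were called.

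The classes were then contrasted as a possible sign of how deep each scraping went, a depth that was not recorded in the labels. The mean of the 11 fibrillar genes, as the difference from each gene's own 9-pool mean, was -0.16, -0.08, 0.07 and 0.26 in the heme pools, against -0.04, -0.24, 0.09, -0.03 and 0.13 in the control pools. The 8 basement membrane genes gave -0.11, -0.05, 0.04 and 0.20 in the heme pools, against -0.04, -0.14, 0.05, -0.01 and 0.07 in the control pools. Both classes were lowest on day 2 and highest in the heme pool of day 14. The fibrillar mean minus the basement membrane mean ran from -0.05 to 0.05 in heme pools and from -0.10 to 0.06 in control pools, with means of 0.00 ± 0.05 (SD, n = 4) and 0.00 ± 0.06 (SD, n = 5). The contrast thus spanned less than either class mean did over the pools. These class means are descriptions with no test, and they include dim genes. Among the brightest members, Col3a1, Col1a2 and Col1a1 ranged over 1.31, 1.29 and 0.56 log2 in the 9 pools, and Col4a1 and Col4a2 over 0.52 each. The contrast of class means therefore does not stand for that of the brightest genes.

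Beaded filament genes averaged -0.15, -0.08, 0.12 and 0.16 in the heme pools, against -0.11, -0.23, 0.07, 0.01 and 0.20 in the control pools, and so took the same order of days. Network genes, by contrast, lay between -0.05 and 0.10 in heme pools and between -0.07 and 0.03 in control pools. Transmembrane genes lay between -0.05 and 0.07 in all heme pools but that of day 14, where they stood at 0.22, and between -0.10 and 0.00 in control pools. Fibril associated genes were also highest in the heme pool of day 14, at 0.20, against 0.05 in the control pool of that day.

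**Figure D4:**
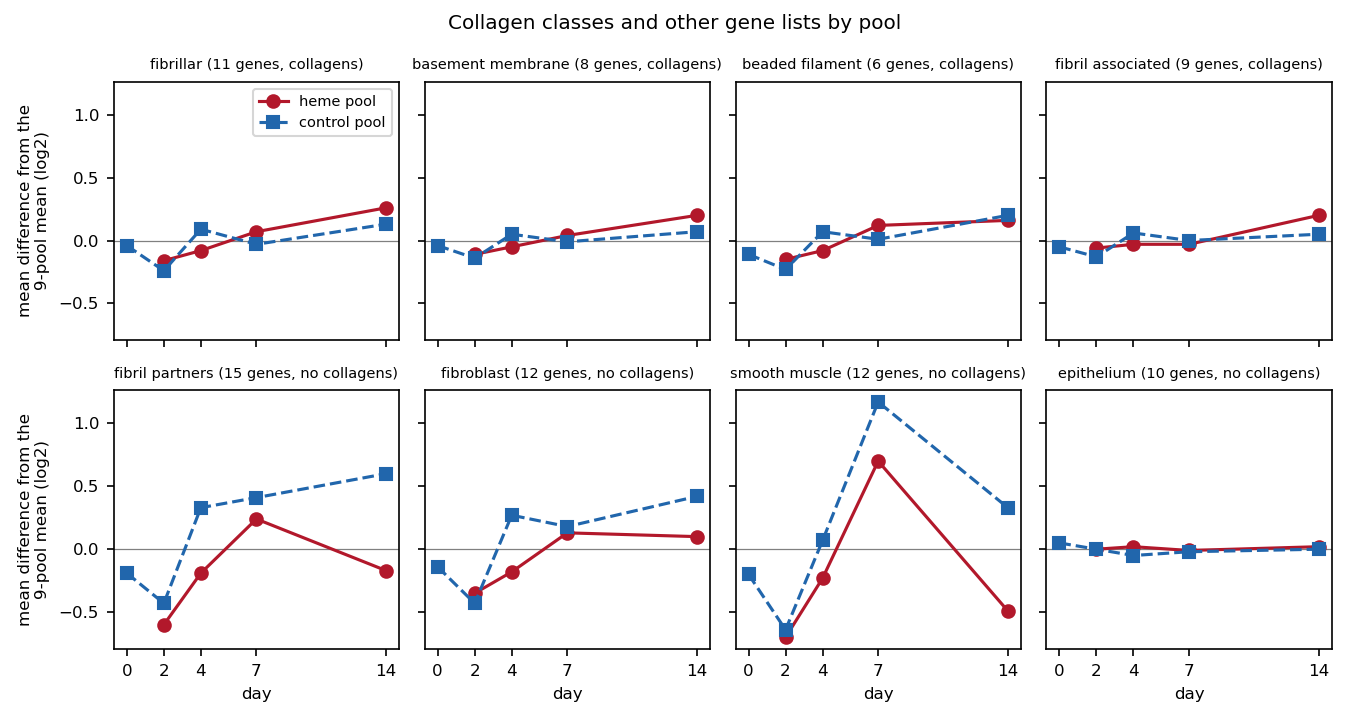
The mean difference from each gene's 9-pool mean (log2, vertical axis) by day (horizontal axis, in days) for 4 collagen classes in the upper row and 4 lists without collagens in the lower row, heme pools as circles and control pools as squares. The smooth muscle list peaks on day 7 at 0.70 in the heme pool and 1.17 in the control pool, the collagen classes stay between -0.24 and 0.26, and the epithelium list stays between -0.05 and 0.05.

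Lists of markers of the cells that make collagen spanned a wider range of means than the collagen classes. The 12 fibroblast genes averaged -0.35, -0.18, 0.13 and 0.10 in the heme pools, against -0.14, -0.43, 0.27, 0.18 and 0.42 in the control pools. Dcn, a proteoglycan on fibrils and a fibroblast marker, stood at 8.46, 9.18, 9.63 and 9.06 log2 in the heme pools, against 9.12, 8.23, 9.98, 9.86 and 10.14 log2 in the control pools. The summed linear values of the fibroblast list ran from 1845 to 2820 in heme pools and from 1814 to 3764 in control pools. Of 11 fibroblast genes tested, 0 were called for the diet and 0 for the day. For the day 7 of them had an unadjusted p under 0.05, against 7.12% of all genes.

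Smooth muscle peaked elsewhere. Its 12 markers averaged -0.70, -0.23, 0.70 and -0.49 in the heme pools, against -0.20, -0.64, 0.07, 1.17 and 0.33 in the control pools, with summed linear values of 1733 to 5287 in heme pools and 1716 to 8048 in control pools. The F test of the day called 2 of 12, Tagln and Synpo2, both of the contractile apparatus (limma adjusted p = 0.0411 each). It also called Rgs5 among 6 pericyte genes (limma adjusted p = 0.0348), and 0.154% of all genes. Rgs5 stood at 8.21 in the heme pool and 8.61 in the control pool of day 7, above its values on all other days. In the heme pools Col3a1 and Col1a2 were also at their highest on day 7, at 8.94 and 8.50 log2, while in the control pools they were highest on day 14, at 9.19 and 8.81 log2. The part of muscle in the collagen values was not tested.

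Endothelial markers averaged -0.33, -0.10, 0.12 and 0.03 in the heme pools, against -0.25, -0.22, 0.22, 0.07 and 0.46 in the control pools. Macrophage markers averaged -0.46, -0.12, 0.14 and 0.18 in the heme pools, against -0.02, -0.27, 0.14, -0.03 and 0.43 in the control pools. Both lists were thus lowest in the heme pool of day 2 and highest in the control pool of day 14, as Col3a1 and Col1a2 were. Their summed linear values ran from 677 to 921 and from 658 to 967 in heme pools, and from 718 to 1183 and from 756 to 1109 in control pools. The 10 epithelium markers stayed between -0.01 and 0.02 in heme pools and between -0.05 and 0.05 in control pools, with sums of 33398 to 34783 and 32096 to 34479. Whether a share of stromal cells or their RNA per cell set the collagen values was not tested.

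Fibril partners are proteins that bind or organise collagen fibrils. Of 15 tested 0 were called for the diet, with a median difference of -0.37, and 0 were called for the day. For the day 11 had an unadjusted p under 0.05, against 7.12% of all genes. The 44 collagens, dim genes included, had a median diet difference of 0.08, or 0.00 without the heme pool of day 14. The brightest fibrillar genes Col3a1, Col1a2 and Col1a1 were at -0.15, -0.15 and -0.02. For 8 of the 15 fibril partners both pools of day 2 were the lowest of the 9, against 4.18% of all genes. Aspn, a small proteoglycan, stood at 6.00, 6.83, 7.60 and 6.86 log2 in the heme pools, against 6.53, 6.61, 7.66, 7.95 and 7.90 log2 in the control pools. Its difference was -0.51 (SE 0.38, limma adjusted p = 0.481). Blocking on the day gave -0.71 (adjusted p = 0.0523). Fn1, fibronectin, stood at 7.31, 7.83, 8.34 and 7.75 log2 in the heme pools, against 8.06, 7.60, 8.41, 8.66 and 8.76 log2 in the control pools, and Postn, periostin, had a like difference of -0.49 (SE 0.34, limma adjusted p = 0.452).

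The fibril partners averaged -0.60, -0.19, 0.24 and -0.17 in the heme pools, against -0.19, -0.43, 0.33, 0.41 and 0.60 in the control pools. On day 14 the heme pool of this list lay below the control pool. So did that of Col3a1, Col1a2, Col5a2 and Col1a1, with differences of -0.44, -0.36, -0.10 and -0.05, while the other 7 fibrillar genes lay above it by 0.21 to 0.44.

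Enzymes that make and mature collagen were set beside the chains. On the list of synthesis and folding, 0 of 17 genes were called for the diet and 0 for the day, with a median diet difference of -0.04. The most different were Plod2, a lysyl hydroxylase, at -0.44 (SE 0.20, limma adjusted p = 0.3), Tmem38b, an ion channel of the endoplasmic reticulum, at -0.36 (SE 0.12, limma adjusted p = 0.217), and P3h2, a prolyl hydroxylase, at -0.34 (SE 0.19, limma adjusted p = 0.37). On the list of trimming and crosslinking 0 of 8 were called for either, with a median of 0.07, and Adamts14, Loxl4 and Bmp1 had differences of 0.14, 0.13 and 0.12.

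Among genes of collagen breakdown and uptake, 0 of 11 were called for the diet or the day, and the median diet difference was -0.12. Timp3 and Timp2, inhibitors of matrix proteases, had differences of -0.45 and -0.34, and Fap, a protease of activated fibroblasts, of -0.36 (limma adjusted p = 0.27, 0.393 and 0.24). Of 8 collagen receptors 0 were called, and Ddr2, a receptor kinase for fibrillar collagen, had a difference of -0.34 (SE 0.21, limma adjusted p = 0.404). Of 16 genes of basement membrane partners 0 were called, with a median of -0.10. The largest difference among the laminins was Lama3 at -0.30 (SE 0.18, limma adjusted p = 0.398), and Lamb3, like Lama3 a chain of the epithelial laminin, was at 0.26 (SE 0.05, limma adjusted p = 0.0555).

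By median, the heme pool of day 14 stood above the mean of the other 8 pools over all genes in the dim range. For collagens it did so in every range of level. It held the highest value of 29 of the 44 collagen genes (65.9%), against 25.4% of all genes, and these 29 included 7 of 11 fibrillar and all 4 transmembrane genes. The share of 25.4% is over genes of every level, and no share among genes of like level was taken. How far this pool stood from the others varied with the level of a gene. Its median difference from the mean of the other 8 pools was 0.15 for all genes with means from 4.72 to 5.5 log2, 0.11 from 5.5 to 6, 0.02 from 6 to 6.5 and -0.02 from 6.5 to 7. For collagens in these ranges the medians were 0.22 (7 genes), 0.32 (9 genes), 0.31 (13 genes) and 0.14 (10 genes). The 3 collagens from 7 to 8 log2 and the 2 above 8 had medians of 0.25 each, against -0.06 and -0.05 for all genes. The other 8 pools include those of day 2. Against the control pool of day 14 alone, these bright genes were lower in the heme pool. The differences were -0.44 for Col3a1, -0.36 for Col1a2, -0.26 for Col6a1, -0.05 for Col1a1 and -0.01 for Col6a2. All of these bright genes were highest in the control pool of day 14, not in the heme pool.

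**Figure D5:**
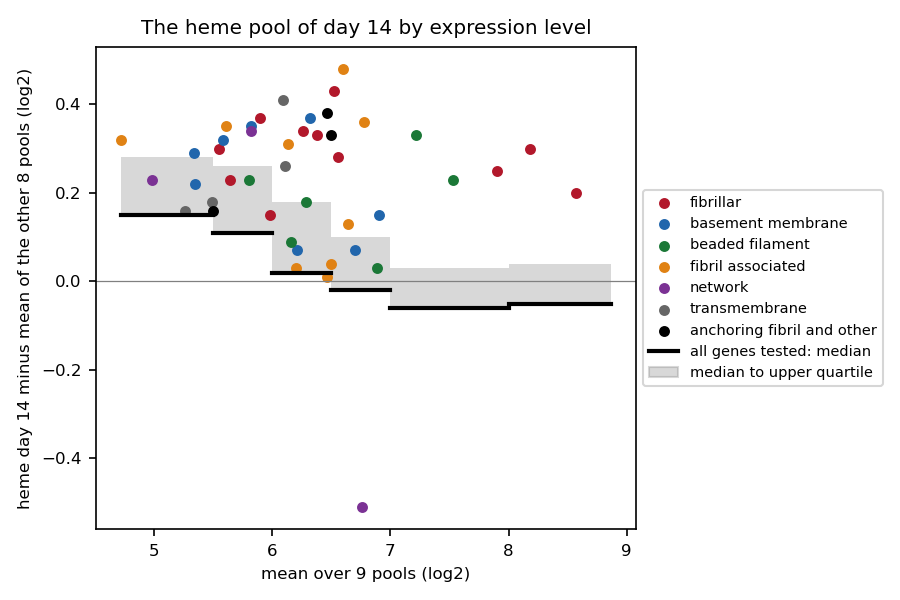
The heme pool of day 14 minus the mean of the other 8 pools (log2, vertical axis) against the mean over the 9 pools (log2, horizontal axis), with 44 collagen genes as points coloured by class, the median of all genes tested per range of level as a black bar and the span up to their upper quartile in grey. All collagens but Col8a1 lie above 0, while the median of all genes is -0.06 between 7 and 8 log2.

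Chains that assemble into the same molecule were compared over the 9 pools, in 9 pairs. Correlations were tested by exact permutation of the pools, two-sided, over 362880 orders. They share arrays and days, and some share dim levels, and a trend of the pools moves both genes of a pair. Chains of different molecules were not compared in this way, so a high r cannot be read as particular to partners. Col3a1 and Col1a2, of different molecules, were both lowest in the pools of day 2 and highest in the control pool of day 14. Col1a1 and Col1a2 had r = 0.96 (exact permutation p = 2.48e-05, adjusted p = 0.000223) and rho = 0.97 (exact permutation p = 0.000165, adjusted p = 0.00149), and r = 0.95 without the 2 farthest pools. Col6a1 and Col6a2 had r = 0.95 (exact permutation p = 0.000165, adjusted p = 0.000744) and rho = 0.93 (exact permutation p = 0.00075, adjusted p = 0.00337), and r = 0.90 without the 2 farthest pools. Col4a1 and Col4a2, whose promoter windows overlap, had r = 0.84 (exact permutation p = 0.00278, adjusted p = 0.00625) and rho = 0.90 (exact permutation p = 0.00211, adjusted p = 0.00632), and r = 0.74 without the 2 farthest pools.

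Other pairs rested on few pools. Col4a3 and Col4a4 had r = 0.93 (exact permutation p = 0.00212, adjusted p = 0.00625) and rho = 0.81 (exact permutation p = 0.00946, adjusted p = 0.0213), but r = 0.22 without the pools of day 14. Col9a2 and Col9a3 had r = 0.79 (exact permutation p = 0.0142, adjusted p = 0.0255) and rho = 0.63 (exact permutation p = 0.076, adjusted p = 0.0978), and r = 0.19 without the same pools. Col11a1 and Col11a2 had r = 0.86 (exact permutation p = 0.0179, adjusted p = 0.0268) and rho = 0.72 (exact permutation p = 0.0317, adjusted p = 0.0476), and r = 0.50 without the heme pool of day 14 and the control pool of day 2. The relations of these 3 pairs rest on those pools. Col5a1 and Col5a2 had r = 0.66 (exact permutation p = 0.0899, adjusted p = 0.0899) and rho = 0.72 (exact permutation p = 0.0304, adjusted p = 0.0476), so they passed by rank and not by Pearson's r. Their r was 0.85 without the heme pool of day 14 and 0.45 without that pool and the control pool of day 2. Col4a5 and Col4a6 had r = 0.66 (exact permutation p = 0.057, adjusted p = 0.0642) and rho = 0.29 (exact permutation p = 0.457, adjusted p = 0.457), and r = 0.60 without the 2 farthest pools. Col8a1 and Col8a2 had r = -0.81 (exact permutation p = 0.0467, adjusted p = 0.0601) and rho = -0.33 (exact permutation p = 0.39, adjusted p = 0.439), and r = 0.08 without the 2 farthest pools. Neither of these pairs passed by either measure after adjustment.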

How the data were processed

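The deposited values are log2 expression per probeset. Per the submitters' processing notes the authors used RMA, of unstated version, which corrects background, brings the arrays to a common distribution and combines probes into probesets on the log2 scale. Of 35556 probesets, 21789 had 1 gene symbol in the platform annotation, 1621 had several and were left out, and 12146 are unnamed here. Entrez IDs matched 21698 single-gene probesets to RefSeq, and 0 symbols changed.

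Linear models were fitted with limma 3.58.1 (lmFit, and eBayes with an intensity trend) in R 4.3.3 on 14953 genes, those not in the lowest 25% by mean. The Benjamini-Hochberg adjustment ran over all of them, with calls made below 0.05. The comparisons were heme against control (9 arrays), the day with the diet as a covariate (8 arrays), the interaction of diet with late days (8 arrays) and the slope along the control days (5 arrays). The fits were tested on simulated data. Collagens, their classes and 17 lists of other genes were chosen with earlier results of these data known. Of 228 genes listed, classes included, 215 were matched.

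Values in every pool are given for collagens called in any comparison, for the 6 brightest fibrillar, basement membrane and other genes, and for the head-to-head type IV genes. Of the other lists, called genes and at most the 3 with the largest differences may be named. The labels give the heme and control pools of days 2, 4, 7 and 14 a shared day, not shared animals. Over all genes the deviations of the paired pools correlated with r = 0.651, -0.005, 0.333 and 0.168 on these days, and those of pools of different days with up to 0.422. Alternatives were other filters, other scaling, no intensity trend, a mean over probesets, the day as a block and leaving out pools.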

Additional observations from a re-analysis of the deposited data

Results flagged for a closer look

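Within each diet, the highest and the lowest pool of each of the 20 collagen genes that the selection rule names were set against Dixon's critical value for a pool that stands apart from the rest. In 8 of 40 groups a pool passed it. The nominal rate of about 1 in 20 holds for separate groups of replicates. Here the groups share arrays, their pools are of different days, and some genes are nearly flat. The count therefore cannot be set against that rate, and no share over all genes is given. In 7 of the 8 groups the pool that passed was the heme pool of day 14, on the high side. That pool was the highest for 25.4% of all genes tested. Its values were 6.80 log2 for Col5a1, 6.89 for Col2a1, 6.67 for Col27a1, 6.13 for Col4a5, 5.86 for Col4a4, 5.60 for Col4a3 and 5.54 for Col4a6. For Col4a6 the control pool of the same day had the same value of 5.54. The other was Col8a1, whose control pool of day 4 was low at 6.62, although the heme pool of that day stood nearby at 6.70 and the heme pool of day 14 lower still at 6.30.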

How the results depend on the processing

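No collagen gene was called in the diet, late-minus-early or control slope comparison under any alternative run, and the smallest adjusted p of a collagen gene for the diet was 0.154. With the day as a replicate block 0 of 44 were called and the median diet difference was 0.07, and the block changed no call of a collagen gene. For the day, leaving out 1 pool gave 0 to 2 called genes, the 2 being Col3a1 and Col1a2 without the control pool of day 7, and 3 to 13 at an unadjusted p under 0.05. The count of 13 came without the control pool of day 14, where 18.1% of all genes had such a p, and the count of 3 without the control pool of day 2, and without both pools of day 2 it was 0, with fewer samples in the fit. The counts of 10 genes lowest on day 2 and of 29 highest in the heme pool of day 14 were 10 and 25 after cyclic loess, a normalization chosen after seeing the data.

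The sign of the diet difference of a named gene was the same in 346 of 375 alternatives and opposite in 29, in 11 of 20 genes, all with small differences. A difference of 0.00 was counted as the same sign. Col16a1, at 0.00, is therefore not among the 11, although it ran from -0.04 to 0.03 with 1 pool left out. Col1a1 stood at 0.01 with median centring and with cyclic loess. Col4a2 stood at 0.05 without both pools of day 2. Col4a5 stood at -0.02 with cyclic loess, with or without the block, and at -0.04 without both pools of day 2. Col4a6 stood at -0.01 with cyclic loess and -0.04 with the block added. Leaving out 1 pool gave ranges of -0.30 to 0.06 for Col3a1, -0.28 to 0.05 for Col1a2, -0.09 to 0.08 for Col1a1, -0.13 to 0.03 for Col4a1, -0.09 to 0.08 for Col4a2, -0.07 to 0.01 for Col15a1, -0.09 to 0.06 for Col4a5, -0.17 to 0.08 for Col6a1, -0.03 to 0.15 for Col6a2, -0.20 to 0.07 for Col6a3 and -0.02 to 0.09 for Col4a6. The cause of these changes was not tested.

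Over all genes, the 100 calls for the diet became 77 with the block, 30 to 251 without 1 pool and 0 without both pools of day 7, and the 23 calls for the day became 8 with the filter at the 50th percentile, 39 with median centring and 0 without both pools of day 2. Signal over background per probeset was not used here, so how many dim collagens are detected at all is not known.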

Other observations

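The remaining marker lists are given as values only. The 6 pericyte genes averaged -0.30, -0.13, 0.21 and 0.00 in the heme pools, against -0.15, -0.24, 0.08, 0.32 and 0.20 in the control pools. The 7 genes of enteric glia and neurons matched, of which 4 passed the filter, averaged -0.07, -0.01, 0.14 and -0.01 in the heme pools, against -0.02, -0.16, -0.07, 0.24 and -0.05 in the control pools, highest on day 7 in both. The 4 mesothelium genes stayed between -0.02 and 0.12 in heme pools and between -0.15 and 0.02 in control pools. The 6 adipocyte genes lay between 0.02 and 0.16 in heme pools and between -0.40 and 0.10 in control pools, where day 0 was the lowest. The largest diet difference on this list was that of Cidec, a protein of lipid droplets, at 7.46, 7.68, 7.95 and 8.12 log2 in the heme pools, against 6.73, 7.12, 6.91, 7.30 and 7.14 log2 in the control pools. All heme pools lay above all control pools, which held for 3.26% of all genes. The difference was 0.76 (SE 0.14, limma adjusted p = 0.0521), or 0.68 with the day as a block (limma adjusted p = 0.046). The other adipocyte genes that passed the filter had differences from -0.01 to 0.06. The 6 colonocyte genes averaged between 0.03 and 0.10 in heme pools and between -0.09 and -0.02 in control pools. Only 1 of them, the water channel Aqp8, was called, higher in heme pools by 0.66 log2 (limma adjusted p = 0.0113), where 0.669% of all genes were called. The others had differences from -0.16 to 0.20, on both sides of 0, so the list means rest largely on Aqp8.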
